A study of Mus musculus with 6 samples.

Results

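The genes described here encode thrombospondins 1 to 3 (Thbs1, Thbs2 and Thbs3), 5 CCN proteins (Ctgf, Cyr61, Nov, Wisp1 and Wisp2, now also named Ccn2, Ccn1, Ccn3, Ccn4 and Ccn5) and the intracellular proteins Ankrd1 and Amotl2. They were found by symbol among the 39174 genes of a deposited expression table, and all 10 were present. The group was selected on shared function and on earlier results of the same comparison, the FPKM differences between flow and control that include the low flow values of Thbs1, so the differences below are a description of these genes and carry no test of their own. RNA was sequenced from MLO-Y4, an established mouse line that resembles osteocytes, the cells that live enclosed in bone matrix. The line was grown on glass slides coated with type I collagen, in medium with calf and fetal bovine serum, to about 60% confluence. In the 3 flow cultures, fluid oscillated over the cells in parallel-plate chambers for 2 h at a shear stress of 10 dyn/cm2, and RNA was taken after 2 h more in new medium. Sham-treated cultures, 3 in number, served as non-flow controls and had the same 2 h of post-treatment incubation. Replicates were made on separate days, and no label says which flow and control cultures share a day. All 6 libraries come from this 1 line.

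Thrombospondins and CCN proteins are matricellular: they are secreted into the matrix but act mainly as signals, by binding integrins, other receptors and growth factors. Many of their genes are transcribed through YAP and TAZ, coactivators that work with TEAD factors and are held back by the Hippo kinases, and through SRF, which with its MRTF cofactors reads the state of the actin cytoskeleton. Ctgf, Cyr61, Ankrd1 and Amotl2 are standard readouts of YAP activity, and in bone cells CCN proteins are known as mechanically regulated genes.

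Values are FPKM, fragment counts divided by transcript length and library size, as the authors deposited them. Depth, estimated from the spacing of the lowest values, was 17910000 to 19010000 reads in the controls. In flow libraries 1, 2 and 3 it was 11020000, 5760000 and 19230000 reads, which makes the first 2 of them the shallowest. Each difference is the flow mean less the control mean of log2(FPKM + 1), with the standard error (SE) of a limma fit to the 11957 genes whose mean FPKM was 1 or more. All 10 members passed that filter. The member with the fewest reads in every library was Ankrd1, with an estimated 59 reads in flow library 2 and 142 to 316 in the others, so counting error is largest for it. Osteocyte markers were partly present: Pdpn (podoplanin) had a mean of 400.7 FPKM and Gja1 (connexin 43) 455.3 FPKM, while Sost, Mepe, Fgf23, Ptprz1 and Dkk1 were listed at 0 in all 6 libraries and Dmp1 was at or near 0. Of the osteoblast markers, Col1a1 (142.9 FPKM) and Col1a2 (104.8 FPKM) were high, and Ibsp and Sp7 were near 0. Runx2, Alpl and Bglap had means of 8.0, 3.11 and 8.21 FPKM. All 5 tested had a negative difference, as did 6185 of all 11957 genes tested. The median of the 5 was -0.26, and -0.11 after removal of each library's trend with GC content. Without flow library 2, 1 of them was positive. Endothelial markers summed to 0.685 to 3.07 FPKM per library and haematopoietic markers to 7.87 to 10.9 FPKM. Most of the endothelial sum came from Egfl7 (mean 1.84 FPKM), and most of the haematopoietic sum from Cd14 (7.495 FPKM) and Cd68 (2.24 FPKM). Kdr, Tie1, Emcn and Itgam were listed at 0 in every library, and Pecam1, Cdh5 and Ptprc were near 0. Smooth muscle markers summed to 34.3 to 48.8 FPKM, nearly all from Acta2 and Smtn, with Myh11 and Cnn1 near 0. The libraries are bulk samples, in which a lower level in every cell and expression in fewer cells cannot be told apart.

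Thbs1 stood lower in all 3 flow libraries than in any control, at 44.4% of the control mean, and Ctgf and Ankrd1 were the other 2 members with every flow value below every control value. Wisp1 was the only member with all flow values above all controls, and in the remaining 6 the groups overlapped. Of the 10 members, 7 had a negative and 3 a positive difference, with a median of -0.46, against a median of -0.01 over all genes tested, of which 6185 were negative and 5772 positive. The median of the members was -0.23 without flow library 2, -0.28 without non-flow control 3 and -0.30 after removal of each library's trend with GC content. No member passed an adjusted p under 0.05 (limma, Benjamini-Hochberg, smallest adjusted p of a member 0.559), where 2 of 11957 genes, 0.0167%, did, and 3 members (Thbs1, Ctgf and Ankrd1) had an unadjusted p under 0.05, as did 1019 of all genes tested, 8.52%. All flow values lay below all controls in 8.00% of the genes tested, and above all controls in 7.12%. Because the members were chosen with this contrast known, nothing is read from their counts.

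**Figure D1:**
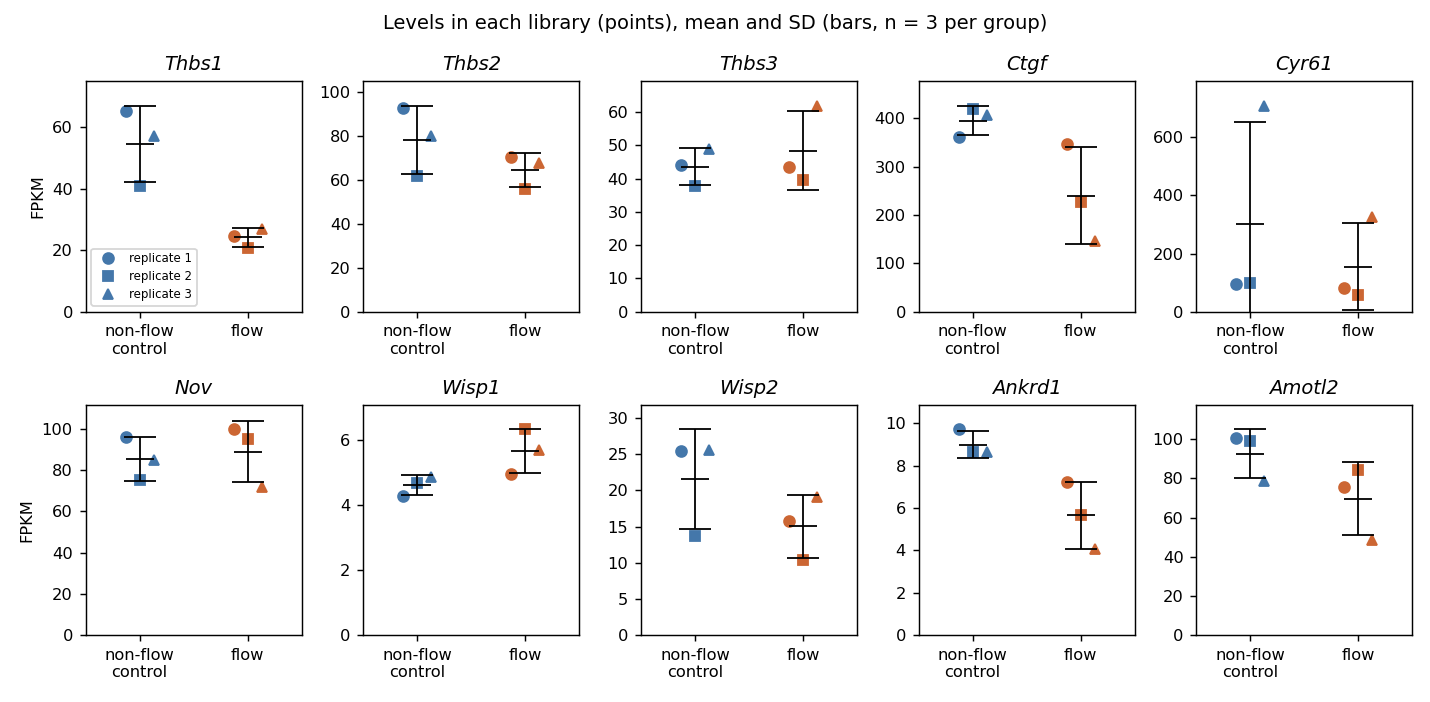
FPKM of each member in the 3 non-flow control libraries (blue) and the 3 flow libraries (orange), with the marker shape giving the replicate number and the black bars the mean and SD (n = 3). Thbs1, Ctgf and Ankrd1 show no overlap with flow below, Wisp1 shows no overlap with flow above, and in Cyr61 replicate 3 of each group stands far above the other libraries, so that its lower SD limit in the controls falls under the axis.

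Of the 3 thrombospondins, Thbs1 differed most between the groups. Thrombospondin 1 is a large trimeric glycoprotein that activates latent TGF-beta, binds CD47 and CD36, and inhibits angiogenesis. Thbs1 (ENSMUSG00000040152, chromosome 2 at 118111876 to 118127133 of mm10, 22 exons) had 65.4, 40.9 and 57.2 FPKM without flow and 24.7, 20.9 and 27.0 FPKM with flow, for replicates 1 to 3. The highest flow value lay well under the lowest control, and the flow values were closer together than the control values. The means were 54.5 ± 12.5 and 24.2 ± 3.12 FPKM (SD, n = 3), a difference of -1.12 with SE 0.19. In the controls 75.6% to 84.2% of the genes tested had a lower level than Thbs1, and in the flow libraries 59.1% to 65.9% did. A more negative difference than that of Thbs1 was found in 261 of the 11957 genes, and in 125 of the 7386 genes averaging 10 FPKM or more. With any 1 library left out the difference of Thbs1 lay between -1.31 and -0.98. An antisense non-coding gene shares 3.43% of the exon bases of Thbs1, and the values used list no level for it. No source used here says whether the authors counted by strand.

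Thbs2, the closest relative of Thbs1 and like it a trimeric inhibitor of angiogenesis, had 92.9, 61.8 and 79.8 FPKM without flow and 70.5, 55.9 and 67.6 FPKM with flow, for replicates 1 to 3. The flow values were at the lower end of the control range and overlapped it. The difference was -0.26 with SE 0.17, and -0.12 without non-flow control 1. Thbs3, a pentameric thrombospondin expressed in skeletal tissues, had 44.0, 37.8 and 48.9 FPKM without flow and 43.6, 39.6 and 61.9 FPKM in flow. Only flow library 3 stood outside the control range, on the high side. The difference was 0.13 with SE 0.19, and it changed sign, to -0.06, without flow library 3. Mtx1, a mitochondrial import gene on the opposite strand, shares 6.59% of the exon bases of Thbs3 and had 113.4 to 139.2 FPKM, so part of the Thbs3 signal may not be told apart from it.

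Since FPKM is scaled by transcript length, the 3 genes can be set against each other within a library. Thbs1 made up 32.3%, 29.1% and 30.8% of the summed thrombospondin FPKM without flow and 17.8%, 17.9% and 17.3% in the flow libraries. These shares were nearly constant within each group, although the Thbs1 level itself ran from 40.9 to 65.4 FPKM in the controls. The share of Thbs2 was 42.9% to 45.9% in the controls and 43.2% to 50.8% in flow, and that of Thbs3 was 21.7% to 26.9% and 31.4% to 39.6%. Shares of one sum depend on each other, and the Thbs3 level itself overlapped between the groups. The other 2 members of the family were close to the detection floor. Thbs4 was listed at 0 in all libraries except flow library 3 (0.0346 FPKM, where 3 reads equal 0.0520 FPKM). Comp, the cartilage oligomeric matrix protein, had 0.0745 to 0.201 FPKM, where 3 reads equal 0.0704 to 0.235 FPKM.

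**Figure D2:**
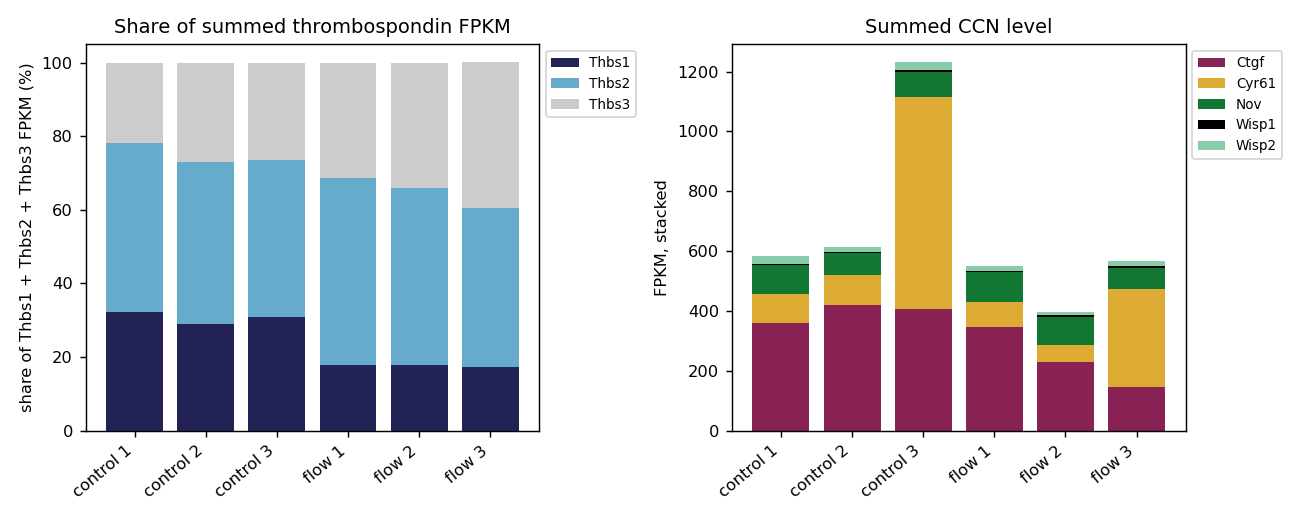
Left, percent of the summed Thbs1, Thbs2 and Thbs3 FPKM contributed by each gene in each of the 6 libraries. Right, FPKM of the 5 CCN genes stacked per library. The dark Thbs1 segment is 29.1% to 32.3% in the controls and 17.3% to 17.9% in flow, and Cyr61 is the largest CCN segment only in control 3 and flow 3.

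Of the CCN genes, Ctgf was lower in flow libraries 2 and 3 and close to the controls in flow library 1. Its product, connective tissue growth factor, is a TGF-beta and YAP target that promotes matrix production. Ctgf (ENSMUSG00000019997, chromosome 10 at 24595442 to 24598683) was the most abundant member in 4 of the 6 libraries, with 361.0, 418.9 and 407.2 FPKM without flow and 346.5, 228.0 and 145.8 FPKM with flow, for replicates 1 to 3. The flow values spread over a wider range than the difference between the group means, and flow library 1 lay just under the lowest control. The means were 395.7 ± 30.6 and 240.1 ± 101 FPKM (SD, n = 3), a difference of -0.80 with SE 0.30. Without flow library 3 the difference was -0.49. The antisense gene Gm15270 shares 23.2% of the exon bases of Ctgf and was listed at 0.780 to 2.37 FPKM. With strand use unknown, these values do not show how reads in the shared bases were assigned.

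Cyr61, a ligand of several integrins that is induced quickly by serum and stretch, had overlapping groups. Cyr61 (ENSMUSG00000028195, chromosome 3 at 145646976 to 145649981) had 95.8, 100.001 and 708.5 FPKM without flow and 82.8, 57.3 and 325.9 FPKM with flow, for replicates 1 to 3. Non-flow control 3 and flow library 3 were both far above the other 4 libraries, and within each group the spread exceeded the difference between the groups. The means were 301.4 ± 353 and 155.3 ± 148 FPKM (SD, n = 3), a difference of -0.71 with SE 0.97. Without non-flow control 3 the sign changed, to 0.24, and without flow library 3 the difference was -1.45. Cyr61 made up 14.4% to 16.4% of the summed CCN FPKM in the other 4 libraries, and 57.6% and 57.3% in control 3 and flow 3. The titles of those 2 libraries carry adjacent numbers, 19 and 20, but no label states that they share a culture day. In each of the 3 pairs of adjacent titles the flow value was the lower one. Cyr61 was not alone in this pattern: the immediate early gene Egr1 had 218.2 and 184.8 FPKM in control 3 and flow 3 against 7.19 to 10.7 FPKM in the other 4 libraries, and Fos had 13.7 and 8.93 against 0.364 to 0.776 FPKM. The related Fosb had 12.1 and 8.45 FPKM there against 1.48 to 2.83 FPKM.

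The other CCN genes differed less. Nov, a CCN protein that counteracts several actions of Ctgf, had 96.2, 75.1 and 84.8 FPKM without flow and 99.6, 95.1 and 71.9 FPKM in flow. The ranges overlapped almost fully, with a difference of 0.05 (SE 0.16). Wisp2, a CCN protein without the carboxy-terminal domain of its relatives, had 25.5, 13.6 and 25.6 FPKM without flow and 15.8, 10.4 and 19.02 FPKM in flow. Non-flow control 2 fell within the flow range, and the difference was -0.48 (SE 0.31), or -0.25 without flow library 2 and -0.76 without non-flow control 2. Wisp1, which promotes osteoblast differentiation and is a known Wnt target, was the member with the lowest control level. It had 4.29, 4.68 and 4.89 FPKM without flow and 4.97, 6.34 and 5.70 FPKM in flow, so the lowest flow value stood only just above the highest control. The difference of Wisp1 was 0.24 with SE 0.13. The last CCN gene, Wisp3, was at or near the floor, with 0 to 0.213 FPKM where 3 reads equal 0.128 to 0.428 FPKM.

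The intracellular YAP readouts had lower means in flow, without overlap in Ankrd1, a nuclear and sarcomeric ankyrin-repeat protein. Ankrd1 (ENSMUSG00000024803, chromosome 19 at 36111961 to 36120099) had 9.70, 8.62 and 8.63 FPKM without flow and 7.24, 5.66 and 4.05 FPKM with flow, for replicates 1 to 3. The controls were close together, and every flow value lay below them. The means were 8.98 ± 0.621 and 5.65 ± 1.60 FPKM (SD, n = 3), a difference of -0.61 with SE 0.19, and of -0.43 without flow library 3. Amotl2, an angiomotin-like junction protein that binds YAP and is itself a YAP target, had 100.6, 99.0 and 78.5 FPKM without flow and 75.8, 84.5 and 48.7 FPKM in flow. Flow library 2 lay inside the control range and flow library 3 far below it. The difference of Amotl2 was -0.44 with SE 0.22, and -0.20 without flow library 3.

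Promoter sequence of Cyr61, Amotl2 and Ankrd1 is shown because these 3 of the 5 members found in the RefSeq promoter table (Thbs2, Thbs3, Cyr61, Amotl2 and Ankrd1) carry the core TEAD motif GGAATG on 1 of the strands (CATTCC on the other). Sequences are on build GRCm38.p6, 5′ to 3′ on the gene's strand, with motif matches in capitals. For Cyr61 they are the 250 bases before the RefSeq start site, chr3:145649986-145650235 (minus strand). For Amotl2 and Ankrd1 that window lies wholly inside the span GENCODE gives the gene, and only 30 bases around each TEAD match are given. They are at chr9:102717727-102717756 (plus strand) for Amotl2 and at chr19:36120037-36120066 and chr19:36119950-36119979 (minus strand) for Ankrd1.
Cyr61: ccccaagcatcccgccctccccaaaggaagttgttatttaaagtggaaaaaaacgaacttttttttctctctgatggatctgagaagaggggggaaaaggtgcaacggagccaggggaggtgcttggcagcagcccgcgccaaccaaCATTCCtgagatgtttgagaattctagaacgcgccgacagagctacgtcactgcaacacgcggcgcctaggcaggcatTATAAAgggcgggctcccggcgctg
Amotl2: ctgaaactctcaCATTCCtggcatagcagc
Ankrd1, first match: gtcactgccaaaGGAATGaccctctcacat
Ankrd1, second match: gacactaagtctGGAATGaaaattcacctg
The TEAD motif began 103 bases before the start site in Cyr61, 65 bases before it in Amotl2, and 210 and 123 bases before it in Ankrd1. The second capital stretch of Cyr61 is a TATA box (TATAAA), 25 bases before the start. Windows of the same length held the TEAD motif in 12.6% and the TATA box in 12.4% of 32851 RefSeq promoters, searched on both strands. The AP-1 motif TGANTCA (6.75% of all promoters) and the CArG box bound by SRF (1.47%) had no match in these letters in any of the 5 member windows, Thbs2 had 1 TATA box match on the opposite strand, and Thbs3 had no match to any of the 4 motifs. No match overlapped another, and a match describes letters, not binding.

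By level per length in the controls the members ran from Ctgf (395.7 FPKM) through Cyr61 (301.4), Amotl2 (92.7), Nov (85.4), Thbs2 (78.2), Thbs1 (54.5) and Thbs3 (43.6) to Wisp2 (21.6), Ankrd1 (8.98) and Wisp1 (4.62). Neighbours in this order overlapped in range over the 3 controls from Ctgf down to Thbs3. Thbs3 and Wisp2, Wisp2 and Ankrd1, and Ankrd1 and Wisp1 did not overlap. In flow the order differed at 3 places: Nov stood above Amotl2, Thbs3 above Thbs1, and Wisp1 above Ankrd1. Of these exchanged neighbours only Thbs3 and Thbs1 had ranges that did not overlap in flow, at 39.6 to 61.9 against 20.9 to 27.0 FPKM.

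The flow libraries did not share 1 order across the members. Relative to the control mean, Thbs1 lay between -1.32 and -0.96 in all 3 flow libraries. Ctgf lay at -0.19, -0.79 and -1.43 in flow libraries 1 to 3, and Ankrd1 at -0.27, -0.58 and -0.98, so both were lowest in flow library 3, the deepest. Amotl2 was also lowest there, at -0.90, against -0.28 and -0.12. Thbs1, Thbs2, Thbs3, Cyr61 and Wisp2 were lowest in flow library 2, the shallowest. They lay there at -1.32, -0.46, -0.12, -1.71 and -0.93. Nov was lowest in flow library 3, at -0.24, and Wisp1 in flow library 1, at 0.09. The part of depth in these values was not tested.

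**Figure D3:**
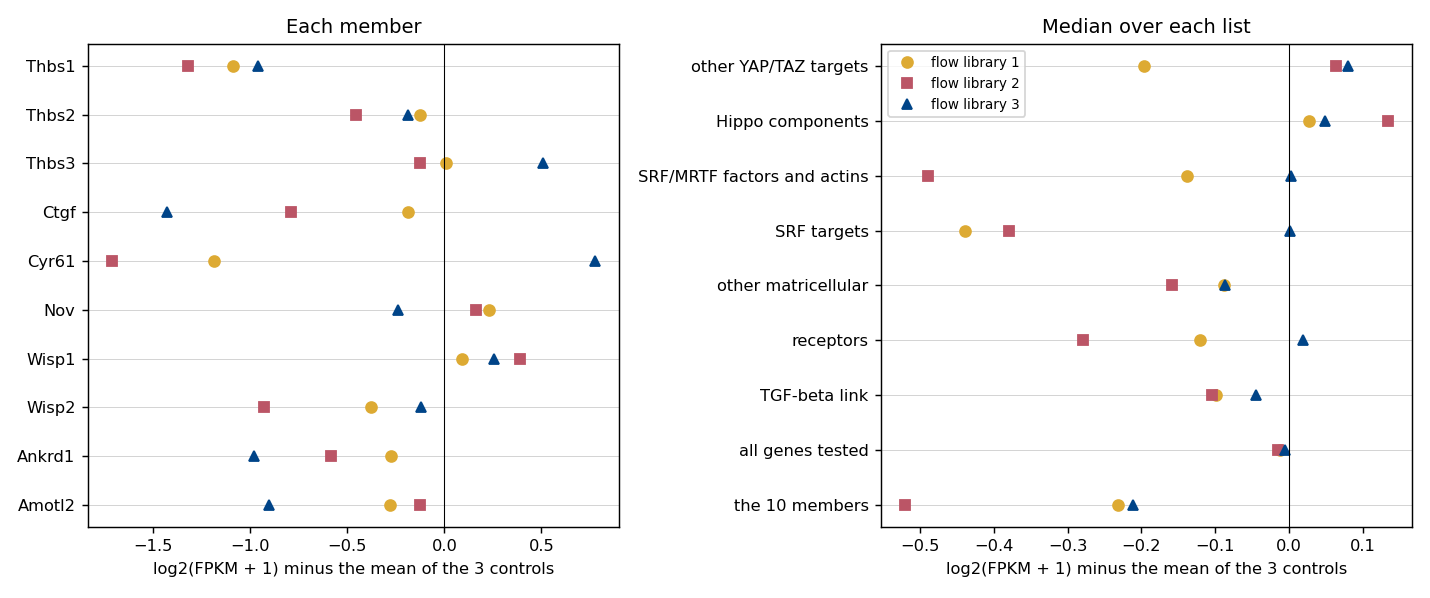
Deviation of each flow library from the mean of the 3 controls on the log2(FPKM + 1) scale, for each member (left) and as the median over each gene list (right), with 1 marker shape and colour per flow library. Thbs1 lies near -1 in all 3 libraries, Ctgf, Ankrd1 and Amotl2 are lowest in flow library 3, and the SRF targets are low in flow libraries 1 and 2 and near 0 in flow library 3.

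Genes around the members were taken from lists, each gene tested in the fit across all genes. Like the members, these lists were chosen with earlier results of these data known, so their counts and medians are a description. No gene of any list passed an adjusted p under 0.05 (limma), and the counts at an unadjusted p under 0.05 given with each list stand against 8.52% of all genes tested (3.70% higher and 4.82% lower in flow). Among 15 tested of 18 other YAP and TAZ targets, 8 differences were positive and 7 negative, with a median of 0.0002, and 1 gene had an unadjusted p under 0.05. That gene was Axl, a receptor tyrosine kinase, at 131.4, 142.3 and 121.5 FPKM without flow and 98.6, 93.1 and 116.1 FPKM in flow (difference -0.36, SE 0.12, adjusted p = 0.559). Its flow values all lay below the controls. Nt5e, the ectonucleotidase CD73, went the other way without overlap, at 22.3 to 24.2 FPKM in controls and 24.6 to 31.3 FPKM with flow. Asap1 (118.8 and 122.2 FPKM) and Arhgef17 (12.1 and 10.2 FPKM) overlapped between groups, and Igfbp3 and Rbms3 were listed at 0 throughout. This list was thus centred near 0, although the other deposited table gave 10 negative differences among those 15, with a median of -0.12. Ctgf, Cyr61, Ankrd1 and Amotl2 had negative differences but were chosen with this contrast known. Nothing is therefore read from setting them beside the list.

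In the Hippo pathway itself, the groups overlapped for the effectors YAP and TAZ. Of 23 components 21 were tested, with 14 positive and 7 negative differences, a median of 0.06, and 5 genes at an unadjusted p under 0.05 (3 higher, 2 lower). Yap1 had 43.0 and 39.98 FPKM in controls and flow, Wwtr1, the gene of TAZ, had 36.4 and 38.3 FPKM, and Tead1 had 25.3 and 30.3 FPKM, all with overlapping groups. Tead3, another DNA-binding partner of YAP, had 10.03, 12.001 and 8.27 FPKM without flow and 6.35, 3.80 and 8.21 FPKM in flow (difference -0.68, SE 0.26, adjusted p = 0.559). Upstream, Stk3 (the kinase MST2) had 12.8 and 17.6 FPKM, Mob1b, a coactivator of the LATS kinases, had 8.10 and 10.7 FPKM, and Mob1a had 85.5 and 97.0 FPKM. In these 3 genes all flow values lay above all controls, and in Tead3 all lay below. Over the 21 tested components, 4 had all flow values above all controls and 2 had all below. In 15.1% of all genes tested the groups did not overlap.

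Most SRF-related genes had negative differences, mainly through flow libraries 1 and 2. Of 23 SRF targets 21 were tested, 19 with a negative and 2 with a positive difference, a median of -0.22, and 2 genes (Tpm4 and Cnn2) at an unadjusted p under 0.05. The median deviation of the list from the controls was -0.44 and -0.38 in flow libraries 1 and 2 but 0.0013 in flow library 3. With the GC trend removed 15 were negative and 6 positive, with a median of -0.08. The other deposited table gave 13 negative and 8 positive differences for this list, with a median of -0.14. Leaving out flow library 1 gave a list median of -0.08, and leaving out flow library 3 gave -0.45. The 2 low libraries are the shallowest, and the part of depth in this was not tested. Tpm4, a tropomyosin, had 171.1, 157.7 and 154.6 FPKM without flow and 112.5, 123.5 and 132.8 FPKM in flow (difference -0.39, SE 0.10, adjusted p = 0.559). Zyx, the focal adhesion protein zyxin, had 433.6 and 333.8 FPKM and Cnn2, calponin 2, had 437.2 and 357.5 FPKM. Srf itself had 37.2, 35.7 and 34.5 FPKM without flow and 19.8, 18.98 and 35.8 FPKM with flow, for replicates 1 to 3, so flow library 3 lay within the control range. The 10 SRF and MRTF factors with actins again include Srf. Of these 10, 9 were tested, with 8 negative differences, a median of -0.23 and 1 gene, Actb, at an unadjusted p under 0.05. Their median was -0.07 without flow library 2 and -0.13 with the GC trend removed. Actb had 3877 and 2986 FPKM and Actg1 1885 and 1569 FPKM, values that near-identical actin copies may share.

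Partners of thrombospondin 1 in TGF-beta signalling differed in both directions. Of 16 genes linked to TGF-beta 14 were tested, with 5 positive and 9 negative differences, a median of -0.06, and 2 genes at an unadjusted p under 0.05, Ltbp4 among them. Ltbp4, a protein that tethers latent TGF-beta to the matrix, had 7.31, 7.44 and 7.505 FPKM without flow and 4.23, 3.46 and 5.13 FPKM in flow (difference -0.69, SE 0.15, adjusted p = 0.559). Every flow value of Ltbp4 was below every control. Tgfb1 had 54.4 to 55.6 FPKM without and 58.6 to 61.2 FPKM with flow, Ltbp3 had 71.2 and 57.3 FPKM, and Ltbp1 had 106.3 and 105.8 FPKM.

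Receptors of thrombospondins and CCN proteins did not separate the groups. Of 20 receptors 16 were tested, with 7 positive and 9 negative differences, a median of -0.10, 1 gene (Itga5) at an unadjusted p under 0.05 and none without overlap, against 8.52% and 15.1% of all genes tested. Cd47, a receptor of thrombospondin 1, had 179.0, 235.3 and 171.3 FPKM without flow and 240.9, 288.8 and 153.3 FPKM in flow. Its flow values lay on both sides of the control range. Itgb1, the integrin subunit shared by most CCN receptors, had 211.1 and 244.9 FPKM, Itga5 had 99.3 and 76.5 FPKM, Sdc4 had 178.9 and 147.6 FPKM, Itga3 had 4.66 and 3.72 FPKM, and Calr had 1302 and 1305 FPKM. Of 18 other matricellular genes 9 were tested, with 2 positive and 7 negative differences, a median of -0.08 and 0 genes at an unadjusted p under 0.05 (limma). Spp1, the gene of osteopontin, was by far the most abundant of them at 6955 and 7552 FPKM, and Sparc, osteonectin, had 521.6 and 482.4 FPKM. Fbln1 had 27.3 and 23.7 FPKM and Fbln5 5.15 and 4.52 FPKM, with the flow values of Sparc and Fbln5 below all controls.

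Among the 7385 other genes averaging 10 FPKM or more, the 3 whose log2 values followed Thbs1 most closely over the 6 libraries were Mnt (r = 0.99), Anapc5 (r = 0.99) and Helb (r = 0.99). These correlations are a description over 6 libraries (Pearson), which all genes share along with their depth and their 2 groups. Mnt, a MAX-binding repressor that opposes MYC, had 16.7, 11.4 and 14.1 FPKM without flow and 7.42, 6.97 and 7.81 FPKM in flow. Like Thbs1, it was lowest in non-flow control 2 and in flow library 2 within each group. Anapc5, an anaphase-promoting complex subunit, ran only from 84.8 to 91.0 FPKM, and Helb, a DNA helicase, from 8.71 to 12.4 FPKM. Of the other members with at least 10 FPKM, Thbs2 (r = 0.81) and Wisp2 (r = 0.80) followed Thbs1 most closely and Nov (r = -0.05) and Thbs3 (r = -0.02) least. A higher r with Thbs1 was found in 421 genes for Thbs2 and in 472 genes for Wisp2, so neither stood out.

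The authors deposited a second FPKM table, in which 2 flow columns match no library title. Its estimated depth was lower, with closeness to whole reads not checked. The estimate was 690000 reads in non-flow control 1 and 3610000 to 4720000 reads in the other columns. The second table covers the same study and is not independent evidence. Thbs1 had 61.3, 38.2 and 52.9 FPKM in its control columns and 22.0, 18.5 and 25.4 FPKM in its flow columns, again without overlap, a difference of -1.16 with SE 0.21. It was the only member whose groups did not overlap there. Ctgf overlapped because its first control and first flow values were 322.3 and 322.8 FPKM, and Ankrd1 because 1 flow value, 8.14 FPKM, lay among controls of 6.49 to 8.49 FPKM. The flow values of Wisp1, 4.18 to 6.73 FPKM, spanned its controls, 4.54 to 5.73 FPKM. Thbs3 changed sign, with a difference of -0.30 (SE 0.30), and Amotl2 was at -0.24. Cyr61 again had 1 control (655.8 FPKM) and 1 flow value (305.8 FPKM) far above the rest.

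**Figure D4:**
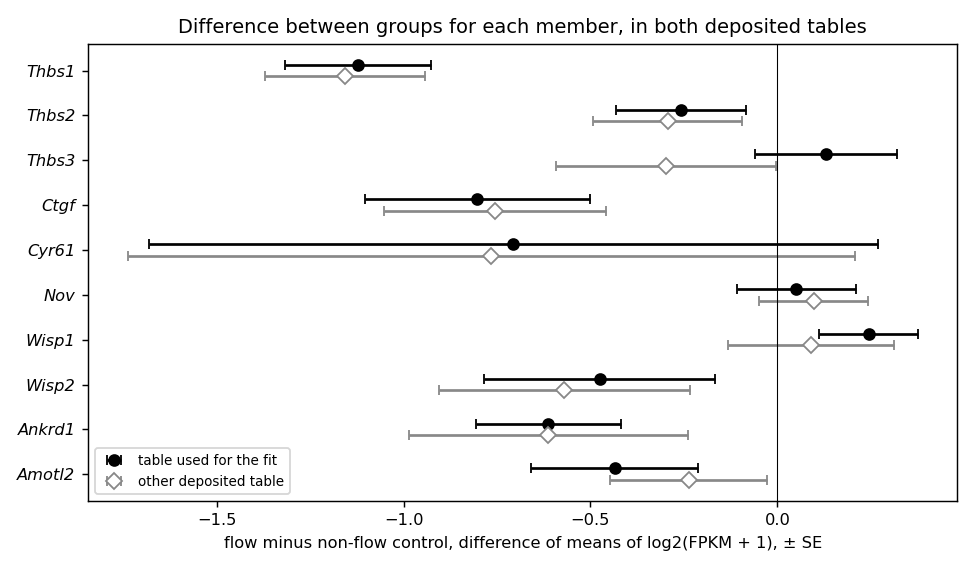
Flow minus non-flow difference of the mean log2(FPKM + 1) for each member, with the SE of the limma fit as bars, in the table used for the fit (filled circles) and in the other deposited table (open diamonds). Thbs1 lies at -1.12 and -1.16, Thbs3 changes sign between the tables, and Cyr61 has the widest bars.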

How the data were processed

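RNA was sequenced from 3 flow and 3 non-flow control libraries. The authors deposited 2 tables of FPKM with 1 column per library, and build mm10 and the tools Cufflinks 2.2.1, TopHat2 2.0.9 and CASAVA 1.8.2 are listed in the submitters' processing notes. Annotation, strand use and depth are stated in none of the sources used here, and neither table holds counts. The table whose 6 columns all name a library title was used. In the other, 22 rows repeat a gene identifier, and of such rows, as of a repeated symbol (Cd47), the one with the higher mean was used.

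A linear model of log2(FPKM + 1) on the group was fitted in R 4.3.3 to the 11957 genes averaging 1 FPKM or more. The limma 3.58.1 functions lmFit and eBayes were used, the latter with a variance trend, and two-sided p-values were adjusted by Benjamini-Hochberg (threshold 0.05). This scale understates differences of low genes. With 3 cultures in each group, p-values reflect only the spread among those cultures. Depth was estimated from single-transcript genes of over 800 nt at 0.01 to 1 FPKM, by taking the commonest product of FPKM and length (less 200 nt) as the value of 1 read. On that scale 74.4% to 81.2% of these genes came within 0.02 of whole reads. Reads per member are approximate. Floors are given for 3 reads and reflect counting error alone.

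Coordinates, exons and overlaps are from GENCODE M21 (mm10, 1-based). The members and the lists (7 around the members and 5 of cell type markers) were chosen with earlier results of these data known. Besides the members and remaining family genes, the text names up to 3 genes per list with the smallest p, 2 with the highest mean, 7 genes always, and the 3 most like Thbs1. Other marker genes, Egr1, Fos, Fosb, Gm15270 and Mtx1 were named after their values were seen. 1 gene that the rule would name is not reported here.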

Additional observations from a re-analysis of the deposited data

How the results depend on the processing

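The difference of Thbs1 stayed negative under all 14 alternatives, between -1.31 (without non-flow control 2) and -0.98 (without non-flow control 1), and the member median, -0.46, lay between -0.53 and -0.23. Its shift exceeded the SD of 0.166 between libraries of a group without flow library 2 and without non-flow control 3. Thbs2, Ctgf, Wisp1, Wisp2, Ankrd1 and Amotl2 also kept their sign under all 14. Thbs3 changed sign in the other deposited table (-0.30) and without flow library 3, Cyr61 without non-flow control 3 (0.24), and Nov under 4 alternatives, among them removal of the GC trend (-0.07). With that trend removed Wisp2 was at -0.30, Amotl2 at -0.26, Thbs3 at 0.29 and Wisp1 at 0.15, and the cause was not tested.

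No member was called under any alternative, but the smallest adjusted p of a member (limma) ran from 0.0796 without flow library 3 to 0.798 without flow library 2. Without flow library 3, 3152 genes had an unadjusted p under 0.05, against 1019 with all libraries. The number of all genes that limma called, 2 in the fit reported, was 4 with a pseudocount of 0.1, 1 with a pseudocount of 5, 4 without a filter on low values, and 0 of 10460 protein-coding genes with the GC trend removed, where 707 had an unadjusted p under 0.05. It was 3 to 14 with 1 library left out: 10, 12 and 11 without non-flow control 1, 2 or 3, and 3, 12 and 14 without flow library 1, 2 or 3. With adjacent title numbers as a replicate block 1 gene was called, 7 rather than 3 members had an unadjusted p under 0.05, and the SE was 0.12 for Thbs1, 0.20 rather than 0.97 for Cyr61 and 0.10 rather than 0.31 for Wisp2. No label states such pairing. Deviations of adjacent libraries correlated at 0.04, 0.02 and 0.06, and those of the other flow and control pairs at -0.07 to 0.03. The highest of the latter, 0.03, was between non-flow control 2 and flow library 1. Whether adjacent libraries share a day was not tested.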
